A study of Danio rerio with 24 samples.

Results

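The comparison described here set whole zebrafish larvae (Danio rerio) raised in 1 µM sodium arsenite against larvae raised in vehicle. It used 8 of the 24 RNA-seq libraries of the study, 4 per group, chosen by their treatment labels. Arsenite larvae and vehicle larvae were both wildtype fish of the AB strain, both were sampled whole at 5 days after fertilization, and both were kept from 4 hours after fertilization in a dilute salt solution for embryos that was renewed regularly, with the arsenite added for the exposed dishes. A replicate is a pool of 10 larvae and not a single animal. Further groups of the same strain, age and exposure window, also 4 pools each, serve for comparison: larvae in 10 µM arsenite, larvae given 1 µM arsenite together with uranyl nitrate at 30 µg/L (the mixture), and larvae in 30 µg/L uranyl nitrate alone. The remaining group, 4 pools of the same age and exposure window in 300 µg/L uranyl nitrate, entered the fit and is quoted for single genes only. A whole larva mixes all tissues, so a difference in a gene's level may reflect more or fewer cells that express it or more or less RNA per cell, and these cannot be told apart.

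Arsenite is trivalent inorganic arsenic. It binds thiol groups of proteins, is pumped out of cells as glutathione conjugates, and is methylated by the enzyme encoded by as3mt. Its best known transcriptional responses are the NRF2 pathway, which raises glutathione synthesis and conjugation, the heat shock response and the metallothioneins. The circadian clock also matters for what follows. CLOCK and BMAL proteins drive transcription of their own repressors, among them the REV-ERB receptors of the nr1d family, and larval zebrafish run such clocks in most tissues. Immediate early genes are a further class of fast responders: they encode factors such as FOS, EGR and MYC and are transcribed within minutes of a stimulus.

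Values are FPKM (fragments scaled by gene length and library size), which can be compared between genes since they are per length. Fold changes are differences of log2(FPKM + 1), arsenite minus vehicle, with a standard error (SE), and they understate the change of weakly expressed genes. P-values come from limma, fitted over all 22682 genes tested and adjusted by the Benjamini-Hochberg method, and a gene was called where the adjusted p was under 0.05. Recovered depth was 15456854 to 19386186 reads per arsenite library and 16581486 to 22987080 per vehicle library. Summed levels of defining markers for 15 tissues overlapped between the groups in every tissue. For lens, arsenite pools spanned 68.7 to 236 FPKM and vehicle pools 109 to 153 FPKM, while the macrophage marker mpeg1.1 was near 0 in both. Across the 8 libraries the first 3 principal components held 17.1, 16.8 and 15.2% of the variance, and arsenite pool 3 lay apart on the second, at -30.6 against -5.51 for the next lowest library.

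Few genes were called at 1 µM arsenite against vehicle. The calls were 27 genes higher and 3 lower in arsenite larvae, in total 30 genes or 0.132% of those tested (0.119% higher and 0.0132% lower). Among the higher genes were the clock repressors nr1d1, nr1d2a, bhlhe40 and nfil3-2, the α-arrestins arrdc3b and arrdc3a, the MYC and FOS family genes mych and fosaa, and the glutathione transferase gsto1. The collagen chaperone serpinh1b was the clearest of the lower genes. The absolute log2 fold change of the called genes had a median of 0.42 and ranged from 0.21 to 1.23. The called genes were well expressed, with a median vehicle mean of 29 FPKM against 5.09 FPKM over all genes tested. The 4 arsenite pools lay on one side of the 4 vehicle pools in all 30 genes, which 830 genes (3.66%) did over the whole table. The call was made on these same pools and favours such a separation, so the separation is not separate evidence. Before adjustment, 1528 genes (6.74%) had a p under 0.05, 788 higher and 740 lower.

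How many genes were called turned on single libraries. Leaving out vehicle pool 1 left 11 calls, and leaving out arsenite pool 3 gave 54. The other counts were 16 without arsenite pool 1, 2 or 4, 51 without vehicle pool 2, and 19 without vehicle pool 3 or 4. A fit of the 2 groups alone called 5 genes, 4 of them among the 30 (serpinh1b, nr1d1, mych and arrdc3b). A core of 10 genes was called whichever of the 8 libraries was left out: nr1d1, arrdc3b, serpinh1b, mych, nr1d2a, gpr3, soul5, fosaa, dhrs13a.2 and zgc:122979. Of the 30, 20 lost their call without vehicle pool 1, 16 without arsenite pool 2, arsenite pool 4 or vehicle pool 3, 15 without arsenite pool 1, 13 without vehicle pool 4, 3 without vehicle pool 2 and 2 without arsenite pool 3. All 30 kept their direction in every setting tried. When a library was left out this was bound to hold, since the groups did not overlap in any of the 30.

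**Figure D1:**
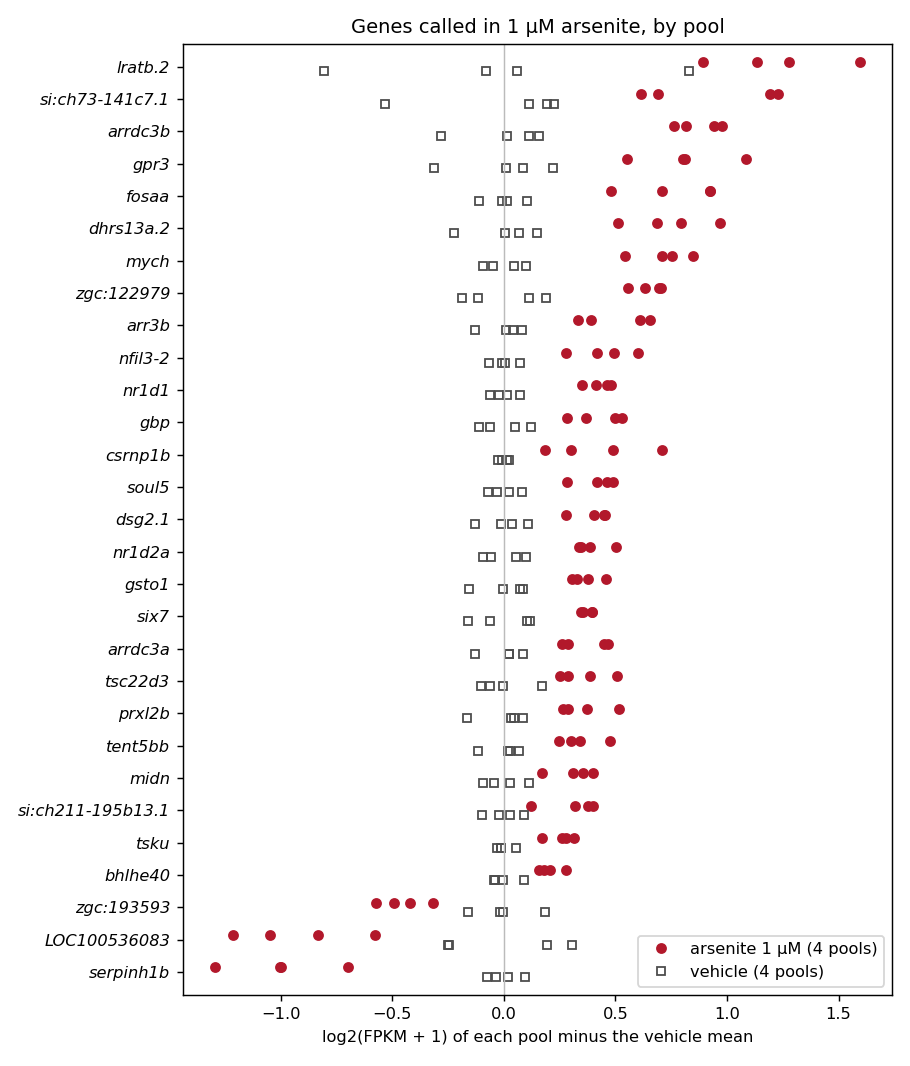
The 29 called genes with a symbol, by pool, as log2(FPKM + 1) minus the mean of the vehicle pools. Filled circles are the 4 arsenite 1 µM pools and open squares the 4 vehicle pools. In no gene do the groups overlap, and lratb.2 has the widest spread among vehicle pools.

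Of the clock repressors, nr1d1, nr1d2a, bhlhe40 and nfil3-2 were higher in arsenite larvae. The gene with the smallest p was nr1d1, which encodes REV-ERB alpha, a nuclear receptor that represses clock genes. It stood at 83.1, 91.0, 86.9 and 89.8 FPKM in the arsenite pools, against 62.1, 68.3, 64.0 and 65.6 FPKM in the vehicle pools. Its lowest arsenite pool was thus well above its highest vehicle pool, and the log2 fold change was 0.43 (SE 0.0387, limma adjusted p = 6.42e-06). The related receptor nr1d2a had 55.5, 57.1, 55.1 and 61.8 FPKM in arsenite and 41.6, 45.1, 46.5 and 40.6 FPKM in vehicle (log2 fold change 0.39, SE 0.0530, limma adjusted p = 0.00112). Again no pools overlapped.

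The helix-loop-helix repressor bhlhe40 was the most abundant called clock gene and had the smallest change of all called genes. Its 4 pools had 124, 130, 120 and 122 FPKM in arsenite, against 104, 114, 107 and 104 FPKM in vehicle (log2 fold change 0.21, SE 0.0378, limma adjusted p = 0.029). The D-box repressor nfil3-2 had 4.78, 5.21, 4.49 and 3.97 FPKM in arsenite and 3.12, 3.31, 2.91 and 3.08 FPKM in vehicle (log2 fold change 0.45, SE 0.0897, limma adjusted p = 0.0448). Of the 8 leave-one-out fits, each of these genes was called in 2.

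No other clock gene was called, and the REV-ERB relatives nr1d2b, nr1d4a and nr1d4b, named after their values were seen, had log2 fold changes of 0.03, 0.13 and -0.07. Of 52 clock and output genes tested, 4 were called higher and 0 lower, and their median log2 fold change was 0.077, against -0.007 over all genes tested. At an unadjusted p under 0.05, 10 were higher and 2 lower, or 23.1% of the list against 6.74% of all genes. The count of called clock genes was 2 without arsenite pool 1 or 2 or vehicle pool 1 or 4, and 1 (nr1d1) in the fit of the 2 groups alone. The close relative nfil3-6, named here after its values were seen, had 13.0 FPKM in arsenite and 7.84 FPKM in vehicle on average (log2 fold change 0.68, SE 0.162, limma adjusted p = 0.121). The D-box activator dbpb, likewise chosen afterwards, had 11.98 FPKM in arsenite and 14.7 FPKM in vehicle (log2 fold change -0.27, limma adjusted p = 0.142). The period gene per1a averaged 20.9 FPKM in arsenite and 21.1 FPKM in vehicle (log2 fold change -0.02, limma adjusted p = 0.988). The hour at which each pool was collected is not given in the sources used here.

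The α-arrestins gave the second smallest p. These proteins are adaptors that bring ubiquitin ligases to membrane receptors, and in mammals ARRDC3 acts on β-adrenergic receptors. Levels of arrdc3b were 49.6, 56.3, 51.6 and 57.6 FPKM in arsenite, against 23.6, 32.3, 31.2 and 29.1 FPKM in vehicle. All arsenite pools were above all vehicle pools by a wide gap, with a log2 fold change of 0.87 (SE 0.0990, limma adjusted p = 0.000163). Its paralog arrdc3a had 59.8, 68.0, 60.8 and 69.0 FPKM in arsenite and 45.3, 52.7, 50.4 and 50.4 FPKM in vehicle (log2 fold change 0.37, SE 0.0617, limma adjusted p = 0.0136). Of 11 arrestin-domain and glucose-sensing genes tested, these 2 were called and none of the others was. The list's median log2 fold change was 0.073, against -0.007 over all genes tested, of which 0.132% were called. At an unadjusted p under 0.05, 3 of the 11 were higher and 1 lower, or 36.4% against 6.74% of all genes. How the authors' counting treated reads shared by the paralogs is not given in the sources used here.

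Immediate early genes were the list with the largest share of low p-values, although only 2 of its members passed the adjusted threshold. The called members were mych, a fish MYC gene, and fosaa, a FOS gene and part of the AP-1 factor. Pools of mych had 67.2, 83.5, 75.7 and 78.2 FPKM in arsenite, against 47.4, 49.2, 42.9 and 44.3 FPKM in vehicle (log2 fold change 0.71, SE 0.0915, limma adjusted p = 0.000628). Pools of fosaa had 10.35, 8.79, 7.34 and 10.4 FPKM in arsenite, against 5.05, 4.96, 5.44 and 4.55 FPKM in vehicle (log2 fold change 0.76, SE 0.113, limma adjusted p = 0.00322). Neither gene's groups overlapped.

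Over the 47 immediate early genes tested, the median log2 fold change was 0.196, against -0.007 over all genes. Above 0 were 40 of the 47, against 10687 of all 22682 genes tested. At an unadjusted p under 0.05, 23 were higher and 0 lower, which is 48.9% of the list against 6.74% of all genes. The members that missed the threshold after adjustment, named after their values were seen, included fosb, with 3.51, 6.15, 2.42 and 5.01 FPKM in arsenite and 2.07, 1.79, 1.65 and 2.104 FPKM in vehicle (limma adjusted p = 0.0662). The FOS gene fosab had 22.3, 36.7, 14.7 and 25.8 FPKM in arsenite and 16.0, 14.6, 11.02 and 12.04 FPKM in vehicle (limma adjusted p = 0.142). In both, arsenite pool 3 was the lowest arsenite pool and arsenite pool 2 the highest. In uranyl nitrate at 30 and 300 µg/L without arsenite, and in vehicle, fosab averaged 19.01, 22.65 and 13.43 FPKM. The same means were 2.707, 3.208 and 1.903 FPKM for fosb, 6.201, 8.033 and 4.999 FPKM for fosaa, and 57.83, 73.53 and 45.96 FPKM for mych. For junba, also named after its values were seen, they were 19.75, 27.09 and 22.12 FPKM. The uranyl nitrate groups were not tested against vehicle.

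Regulators outside that list were called as well. The nuclear factor gene csrnp1b was called, with 31.6, 42.2, 29.0 and 36.1 FPKM in arsenite and 24.9, 25.8, 25.2 and 25.7 FPKM in vehicle (log2 fold change 0.42, SE 0.0736, limma adjusted p = 0.0194). Its vehicle pools were tightly grouped, while its arsenite pools spread out, again with pool 3 lowest and pool 2 highest. The gene midn, whose mammalian product carries immediate early factors to the proteasome, averaged 36.2 FPKM in arsenite and 29.0 FPKM in vehicle (log2 fold change 0.31, SE 0.0583, limma adjusted p = 0.0312). Without arsenite pool 3, the number of immediate early genes called was 8, the highest over the settings tried. The lowest was 1, in the fit of the 2 groups alone.

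**Figure D2:**
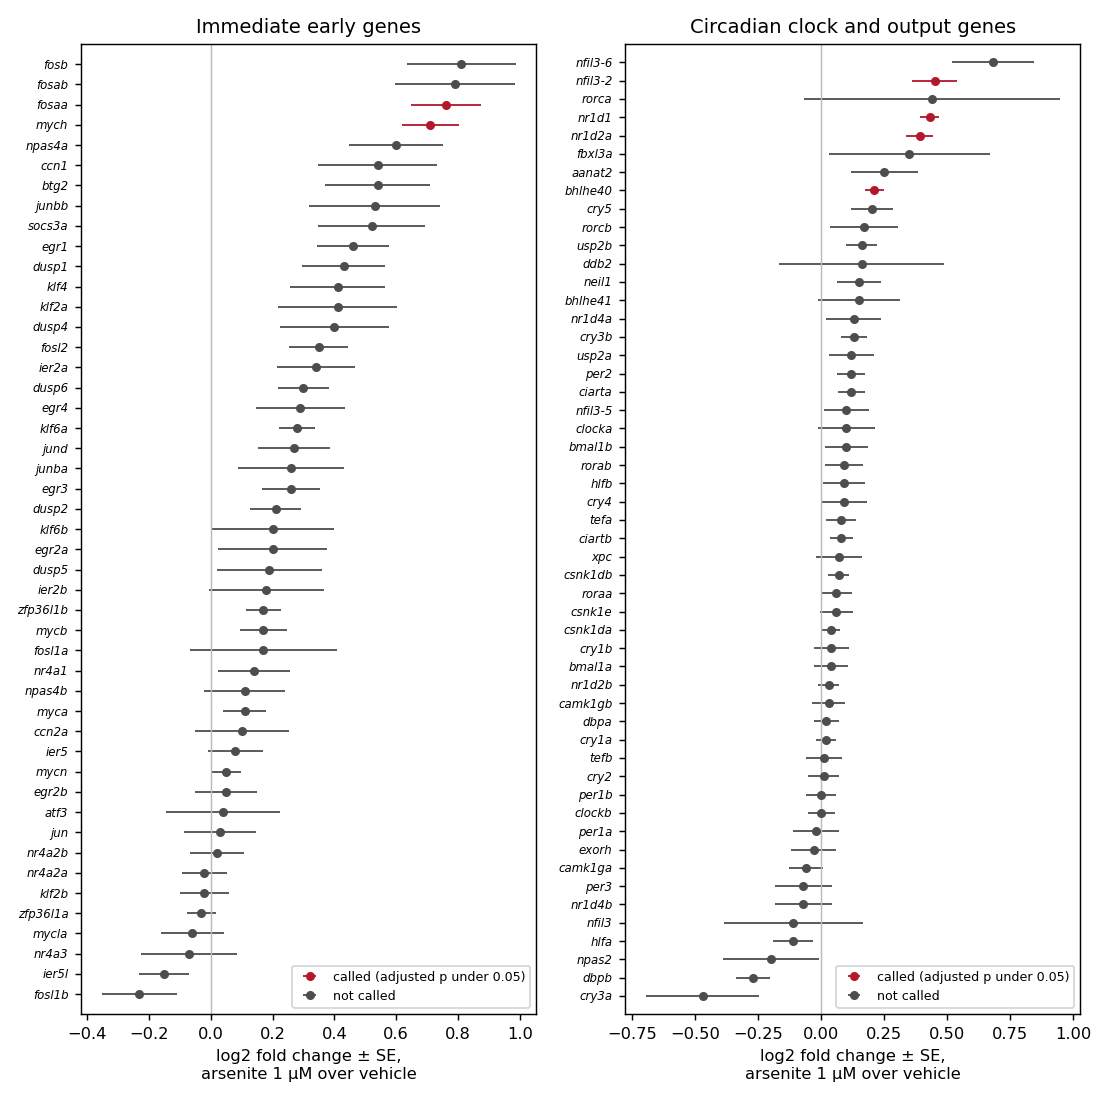
Log2 fold change of arsenite 1 µM over vehicle with its standard error, for the 47 immediate early genes (left) and the 52 clock and output genes (right) tested. Red points are the called genes. On the left 40 of 47 points lie above 0, and on the right the 4 called genes are nr1d1, nr1d2a, bhlhe40 and nfil3-2.

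Collagen folding was represented by a single strong decrease. The gene serpinh1b encodes HSP47, a chaperone of the endoplasmic reticulum that is dedicated to procollagen. It had 27.06, 21.7, 21.8 and 17.6 FPKM in arsenite, against 42.2, 43.4, 47.6 and 45.1 FPKM in vehicle. Every arsenite pool was below every vehicle pool, and the log2 fold change was -1.0 (SE 0.120, limma adjusted p = 0.000312). None of the 35 collagen chain genes tested was called, and their median log2 fold change was -0.019. At an unadjusted p under 0.05, 1 chain was higher and 3 were lower, or 11.4% of the list against 6.74% of all genes. Among 49 genes of collagen processing, cartilage and bone, serpinh1b alone was called, with a median of -0.042. The next smallest p there belonged to fkbp10a, a prolyl isomerase that also works on procollagen, at 3.67 FPKM in arsenite and 4.41 FPKM in vehicle (log2 fold change -0.22, limma adjusted p = 0.64).

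Other stress pathways gave no calls at this dose. Only 0.132% of all genes tested were called, so 0 calls in a short list say little about it. Of 42 cytosolic heat shock and chaperonin genes tested, 0 were called, 4 had a log2 fold change above 0, and the median was -0.070. At an unadjusted p under 0.05, 0 were higher and 5 lower, or 11.9% of the list against 6.74% of all genes. Over all 22682 genes tested, 10687 had a log2 fold change above 0. The cochaperone ahsa1b had 16.7, 18.9, 17.6 and 18.6 FPKM in arsenite and 23.1, 20.3, 22.99 and 21.7 FPKM in vehicle (log2 fold change -0.28, SE 0.0596, limma adjusted p = 0.059). The HSP40 gene dnajb1b averaged 11.07 FPKM in arsenite and 17.0 FPKM in vehicle (log2 fold change -0.59, SE 0.147, limma adjusted p = 0.146), with arsenite pool 2 at 14.7 FPKM and vehicle pool 2 at 14.4 FPKM overlapping. The inducible hsp70l varied from 8.87 to 47.0 FPKM among arsenite pools and from 13.0 to 40.1 FPKM among vehicle pools. Of 46 genes of the unfolded protein and amino acid response, 0 were called (median -0.041). At an unadjusted p under 0.05, 2 of these were higher and 3 lower (10.9%).

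The NRF2 pathway likewise gave no calls. Of 40 genes of this pathway, thioredoxin and glutathione synthesis, 0 were called and the median log2 fold change was 0.007. Over all genes tested 0.132% were called, so 0 calls here say little about the pathway. At an unadjusted p under 0.05, 2 were higher and 1 lower, or 7.5% of the list against 6.74% of all genes. The 2 subunits of the enzyme that starts glutathione synthesis had means close to those of vehicle: gclc averaged 20.0 FPKM in arsenite and 19.6 FPKM in vehicle (log2 fold change 0.02, SE 0.0690, limma adjusted p = 0.985), and gclm 7.13 FPKM in both (log2 fold change -0.01, SE 0.0845, limma adjusted p = 0.995). Heme oxygenase hmox1a averaged 10.8 FPKM in arsenite and 13.6 FPKM in vehicle (log2 fold change -0.30, SE 0.175, limma adjusted p = 0.809). The member with the smallest p was slc3a2b, the heavy chain of amino acid transporters that include the cystine carrier, at 100, 125, 100 and 144 FPKM in arsenite and 69.2, 83.0, 94.5 and 65.6 FPKM in vehicle (log2 fold change 0.58, SE 0.126, limma adjusted p = 0.0662). Its groups did not overlap. Genes of DNA damage and repair gave 0 calls of 41 (median 0.065), and 30 were above 0. At an unadjusted p under 0.05, 7 were higher and 0 lower, or 17.1% of the list against 6.74% of all genes. The smallest p belonged to plk3, at 21.79 FPKM in arsenite and 18.65 FPKM in vehicle (log2 fold change 0.22, limma adjusted p = 0.121). Next was gadd45ba, at 50.37 FPKM in arsenite and 33.91 FPKM in vehicle (log2 fold change 0.54, limma adjusted p = 0.218). The cell cycle inhibitor gene cdkn1a averaged 12.6 FPKM in arsenite and 13.4 FPKM in vehicle.

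Arsenic handling itself was represented by gsto1, an omega-class glutathione transferase whose mammalian counterpart reduces methylated arsenic. Its pools had 16.2, 17.1, 16.5 and 18.1 FPKM in arsenite, against 12.9, 11.5, 13.6 and 13.8 FPKM in vehicle (log2 fold change 0.37, SE 0.0724, limma adjusted p = 0.041). The groups were separate, but leaving out a library ended the call in all but 1 of the 8 cases. In the mixture gsto1 averaged 12.9 FPKM, against 13.27 FPKM in 30 µg/L uranyl nitrate alone (log2 fold change -0.04, limma adjusted p = 0.89). The difference between the arsenite effects with and without uranyl nitrate was -0.40 (SE 0.102, limma adjusted p = 0.224). The neighbour in the family, gsto2, was more abundant, with 124, 128, 122 and 129 FPKM in arsenite and 106, 90.1, 93.3 and 107 FPKM in vehicle (log2 fold change 0.35, SE 0.0863, limma adjusted p = 0.147). The methyltransferase as3mt had 15.1, 12.3, 12.3 and 11.4 FPKM in arsenite and 14.2, 11.9, 12.8 and 12.1 FPKM in vehicle (log2 fold change -0.00, SE 0.0699, limma adjusted p = 0.999). Of 25 genes of arsenic uptake, methylation and export, gsto1 alone was called (median 0.038), and of 21 glutathione transferases tested likewise gsto1 alone (median 0.101). The prostaglandin and carbonyl reductases gave 0 calls of 14, and the metallothionein and zinc genes 0 of 18 (median 0.038).

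The metallothionein gene mt2 was set apart by a single pool. It had 6.505, 11.2, 198 and 11.5 FPKM in the arsenite pools, against 7.21, 9.26, 7.87 and 9.88 FPKM in the vehicle pools. Only arsenite pool 3 was far above vehicle, and the log2 fold change of 1.2 (SE 0.799, limma adjusted p = 0.854) was 0.14 without that pool. The same gene stood at 203 FPKM in pool 2 of uranyl nitrate 30 µg/L.

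Heme and redox enzymes supplied further calls. The heme-binding gene soul5 had 128, 132, 116 and 135 FPKM in arsenite and 97.0, 101, 93.4 and 90.7 FPKM in vehicle (log2 fold change 0.41, SE 0.0579, limma adjusted p = 0.00152). The short-chain dehydrogenase gene dhrs13a.2 had 47.4, 51.2, 41.8 and 57.7 FPKM in arsenite and 29.2, 30.5, 32.4 and 24.7 FPKM in vehicle (log2 fold change 0.74, SE 0.113, limma adjusted p = 0.00422). The peroxiredoxin-like gene prxl2b had 47.1, 50.9, 47.9 and 56.4 FPKM in arsenite and 40.4, 40.05, 34.75 and 41.6 FPKM in vehicle (log2 fold change 0.36, SE 0.0671, limma adjusted p = 0.0297). No pools overlapped in any of the 3. Of 18 genes of heme binding and breakdown, soul5 alone was called (median 0.093), while 0.132% of all genes tested were called. At an unadjusted p under 0.05, 3 of the 18 were higher and 1 lower, or 22.2% against 6.74% of all genes.

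Cone photoreceptor genes were among those called. The cone arrestin arr3b, which ends the light response of cones, had 82.7, 66.0, 68.8 and 80.1 FPKM in arsenite, against 47.7, 53.7, 52.5 and 55.2 FPKM in vehicle (log2 fold change 0.50, SE 0.0927, limma adjusted p = 0.0297). The homeobox factor six7, which zebrafish cones need for their middle-wavelength opsins, had 9.91, 9.54, 9.59 and 9.89 FPKM in arsenite and 6.41, 7.99, 7.92 and 6.95 FPKM in vehicle (log2 fold change 0.37, SE 0.0671, limma adjusted p = 0.0237). Arsenite pools of six7 were nearly equal to each other. Of 53 photoreceptor genes tested, arr3b alone was called, while 14 were higher and 3 lower at an unadjusted p under 0.05, or 32.1% of the list against 6.74% of all genes. The 3 lower were gnat2, opn1mw2 and gucy2d, while the 14 higher included the rod genes gnat1 and rho. The middle-wavelength opsin genes opn1mw1 and opn1mw2 had log2 fold changes of -0.41 and -0.29 (limma adjusted p = 0.787 and 0.722). These members were named after their values were seen. In the mixture against 30 µg/L uranyl nitrate alone, arr3b had a log2 fold change of -0.05 (limma adjusted p = 0.884). That of six7 was 0.39 (limma adjusted p = 0.00997). Of the 53 photoreceptor genes 1 was called higher there, and 3 were higher and 8 lower at an unadjusted p under 0.05. In that comparison 18 of the 53 were above 0, against 9933 of all 22682 genes. Of all genes tested there, 29 were called higher, and 1057 were higher and 1493 lower at an unadjusted p under 0.05.

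The rod and cone transducins had opposite signs, although neither passed the adjusted threshold (both were named after their values were seen). The rod transducin gnat1 had 62.2, 54.7, 60.0 and 57.0 FPKM in arsenite and 50, 44.0, 48.8 and 49.1 FPKM in vehicle (log2 fold change 0.28, limma adjusted p = 0.163). Its cone counterpart gnat2 had 205, 203, 228 and 190 FPKM in arsenite and 232, 235, 244 and 226 FPKM in vehicle (log2 fold change -0.18, limma adjusted p = 0.674). The median over the whole list was 0.028. The summed level of the 3 photoreceptor markers, all cone genes, was 513 to 536 FPKM in arsenite and 526 to 571 FPKM in vehicle.

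The visual cycle, which rebuilds the light-sensitive retinal of photoreceptors in the pigment epithelium of the eye, held the largest called fold change. The gene lratb.2, which encodes an enzyme that esterifies retinol, had 18.7, 13.25, 11.04 and 14.8 FPKM in arsenite, against 2.71, 10.5, 5.15 and 5.77 FPKM in vehicle (log2 fold change 1.23, SE 0.242, limma adjusted p = 0.041). The vehicle pools spread widely, and the highest of them came close to the lowest arsenite pool. Leaving out a library ended the call in all but 2 of the 8 cases. Of 52 retinoid genes tested it alone was called (median 0.053), with 10 higher and 1 lower at an unadjusted p under 0.05, or 21.2% of the list against 6.74% of all genes. Without vehicle pool 2, 5 retinoid genes were called. In the mixture against 30 µg/L uranyl nitrate alone, 0 of the 52 were called. There 5 were higher and 8 lower at an unadjusted p under 0.05, and 19 were above 0. Over all 22682 genes tested there, 0.238% were called, 1057 were higher and 1493 lower at that p, and 9933 were above 0. Lower values were thus the more common over the whole table too.

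Some genes of the same cycle had a like spread among vehicle pools, and others did not. The retinoid-binding gene rbp3 averaged 117 ± 9.12 FPKM in arsenite and 98.8 ± 1.5 FPKM in vehicle (SD, n = 4 each). The isomerase rpe65a, named after its values were seen like rbp3 and the next gene, had 55.1, 42.5, 55.0 and 53.7 FPKM in arsenite and 12.8, 38.59, 25.6 and 31.3 FPKM in vehicle (log2 fold change 1.0, SE 0.218, limma adjusted p = 0.0669). The retinal-binding gene rlbp1b had 17.7, 15.8, 18.8 and 16.0 FPKM in arsenite and 4.53, 13.2, 7.36 and 8.0 FPKM in vehicle (log2 fold change 1.04, SE 0.218, limma adjusted p = 0.0573). In lratb.2, rpe65a and rlbp1b vehicle pool 1 was the lowest of the 8 libraries and vehicle pool 2 the highest of the vehicle pools. Pools of 30 µg/L uranyl nitrate, which held no arsenite, had 51.7, 55.7, 47.4 and 51.4 FPKM of rpe65a, within or near the arsenite range.

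Signalling genes were among the remaining calls. The constitutively active receptor gene gpr3, which raises cyclic AMP, had 10.9, 13.3, 8.91 and 10.8 FPKM in arsenite and 6.88, 6.18, 4.45 and 5.81 FPKM in vehicle (log2 fold change 0.81, SE 0.111, limma adjusted p = 0.00113). The glucocorticoid-induced leucine zipper gene tsc22d3 had 47.0, 50.4, 45.8 and 54.8 FPKM in arsenite and 36.7, 38.1, 43.2 and 35.6 FPKM in vehicle (log2 fold change 0.36, SE 0.0682, limma adjusted p = 0.0316). It was the only call among 60 genes of fasting, FOXO and glucocorticoid response, of which 10 were higher and 1 lower at an unadjusted p under 0.05, or 18.3% against 6.74% of all genes (median 0.096). The GSK3-binding Wnt regulator gbp averaged 46.4 FPKM in arsenite and 34.4 FPKM in vehicle (log2 fold change 0.42, limma adjusted p = 0.0331). The secreted proteoglycan gene tsku averaged 14.3 FPKM in arsenite and 11.8 FPKM in vehicle (log2 fold change 0.26, limma adjusted p = 0.0361).

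Structural and less studied genes completed the set. The desmosomal cadherin gene dsg2.1 averaged 20.9 FPKM in arsenite and 15.7 FPKM in vehicle (log2 fold change 0.40, limma adjusted p = 0.0222), and the poly(A) polymerase family gene tent5bb 6.87 FPKM in arsenite and 5.21 FPKM in vehicle (log2 fold change 0.34, limma adjusted p = 0.0336). Genes without a descriptive name that were higher were zgc:122979 (14.0 FPKM in arsenite, 8.65 FPKM in vehicle), si:ch73-141c7.1 (27.9 FPKM in arsenite, 14.2 FPKM in vehicle) and si:ch211-195b13.1 (45.7 FPKM in arsenite, 36.7 FPKM in vehicle). Gene number 100536065, which has no symbol in the table used, was higher as well, at a log2 fold change of 0.52. Lower in arsenite were zgc:193593, with 62.3, 58.9, 65.5 and 70.4 FPKM against 87.7, 87.0, 100 and 78.6 FPKM in vehicle, and LOC100536083, with 0.968, 1.28, 0.754 and 1.73 FPKM against 2.41, 4.03, 3.65 and 2.42 FPKM in vehicle.

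**Figure D3:**
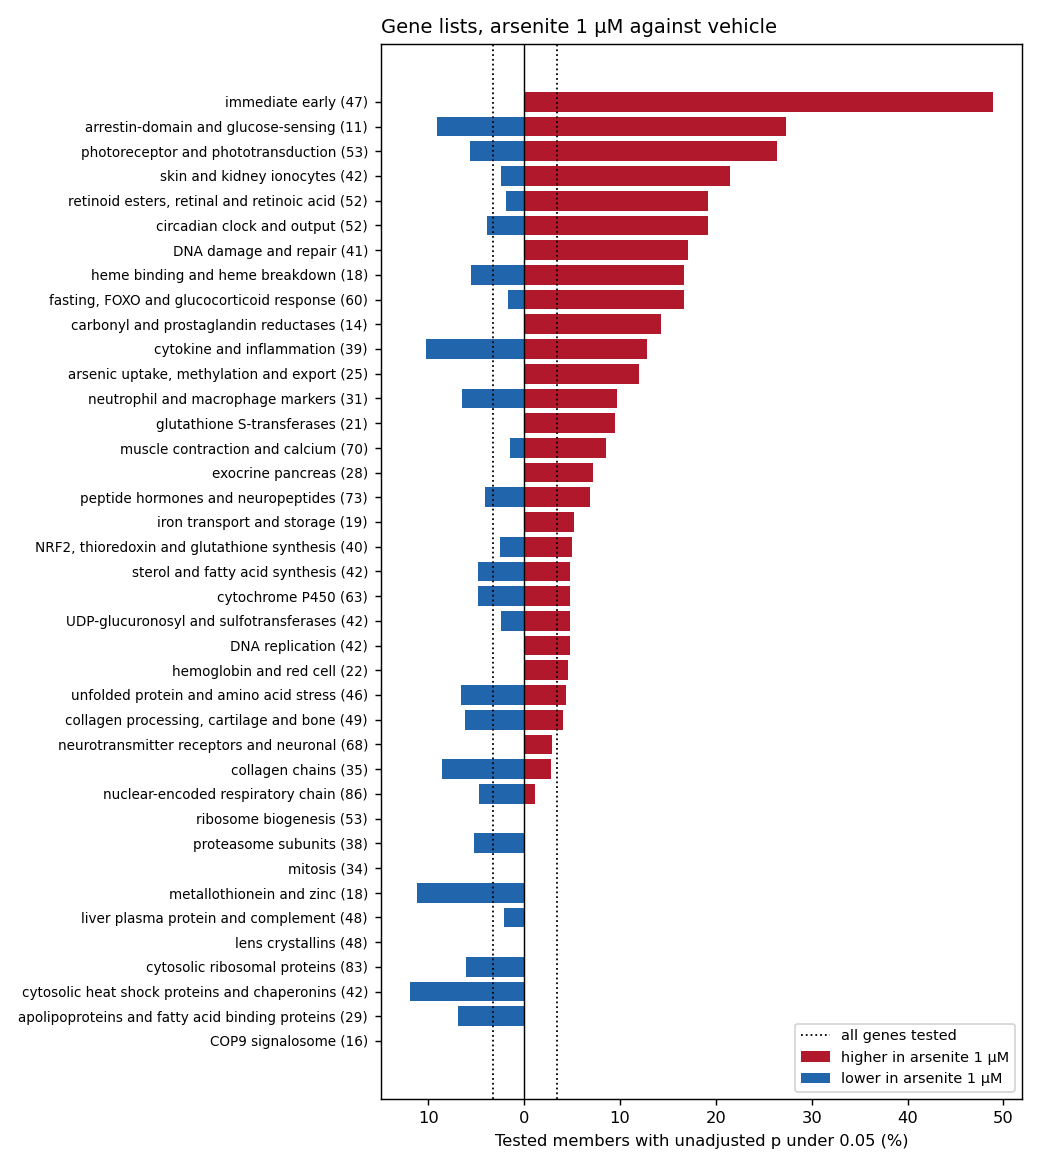
Share of each list's tested members (number in parentheses) with an unadjusted p under 0.05, higher (red, right) or lower (blue, left) in arsenite 1 µM than in vehicle. Dotted lines mark the shares over all 22682 genes tested. Immediate early genes stand at 48.9% higher and 0 lower, and the heat shock list at 0 higher and 5 of 42 lower.

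The same arsenite dose was also given on top of uranyl nitrate. Larvae in the mixture were set against larvae in 30 µg/L uranyl nitrate alone, 8 libraries that share none with the comparison above, although all enter the same limma fit. Called genes numbered 54 (0.238%) there, 29 higher and 25 lower. The count was 25 without mixture pool 2, and 26, 17 and 21 without uranyl nitrate pool 1, 2 and 3. Of the 30 genes called without uranyl nitrate, 11 were called in this comparison, 10 of them in the same direction: nr1d1, arrdc3b, serpinh1b, nr1d2a, dhrs13a.2, arrdc3a, six7, bhlhe40, zgc:193593 and nfil3-2. By sign alone 24 of the 30 matched. In 18 of the 30 the pools did not overlap on the same side, against 1381 genes (6.09%) without overlap on either side over the table. Over the 27 genes higher without uranyl nitrate, the median log2 fold change was 0.24 with it and 0.42 without it. These 27 were chosen by their values without uranyl nitrate, which favours a larger median there. The 2 medians therefore cannot show whether uranyl nitrate changed the arsenite effect.

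The clock repressor nr1d1 and the α-arrestin arrdc3b were among the genes called both times. In the mixture pools nr1d1 had 89.9, 94.3, 92.7 and 89.4 FPKM, against 69.9, 73.3, 73.5 and 69.9 FPKM in uranyl nitrate alone (log2 fold change 0.35, SE 0.0387, limma adjusted p = 7.52e-05). For arrdc3b the mixture pools had 80.9, 79.2, 75.5 and 71.3 FPKM, against 37.2, 35.0, 36.5 and 42.3 FPKM in uranyl nitrate alone (log2 fold change 1.01, SE 0.0990, limma adjusted p = 1.4e-05). The chaperone gene serpinh1b had 16.3, 16.1, 14.4 and 18.8 FPKM in the mixture, against 33.4, 49.7, 41.2 and 40.3 FPKM in uranyl nitrate alone (log2 fold change -1.27, SE 0.120, limma adjusted p = 1.4e-05). No pools overlapped in these 3 genes. A total of 4 clock genes and 2 arrestin-domain genes were called higher in this comparison, the same counts as without uranyl nitrate. In 300 µg/L uranyl nitrate, which held no arsenite, nr1d1 averaged 91.68 FPKM, against 64.99 FPKM in vehicle. The means there and in vehicle were 63.79 and 29.03 FPKM for arrdc3b and 22.37 and 44.58 FPKM for serpinh1b. They were 73.53 and 45.96 FPKM for mych and 62.96 and 43.48 FPKM for nr1d2a. For gpr3 they were 8.864 and 5.83 FPKM, for csrnp1b 36.24 and 25.4 FPKM, and for tsc22d3 55.52 and 38.4 FPKM. Among all called genes, only gsto1 (12.82 and 12.96), prxl2b (34.63 and 39.19) and LOC100536083 (3.929 and 3.129) differed in the opposite direction from 1 µM arsenite. The means of every other called gene differed from vehicle in the same direction as in 1 µM arsenite. In 30 µg/L uranyl nitrate, which also held no arsenite, the mean of every called gene differed from vehicle in that direction too. Means there and in vehicle were 8.612 and 5.83 FPKM for gpr3, 115.4 and 95.57 FPKM for soul5, and 12.5 and 6.039 FPKM for lratb.2. They were closer for nr1d2a (45.36 and 43.48 FPKM) and bhlhe40 (108 and 107.5 FPKM). Neither uranyl nitrate group was tested against vehicle.

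No immediate early gene was called with uranyl nitrate present. Of the 47, 34 were above 0, the median log2 fold change was 0.119 and 11 were higher and 0 lower at an unadjusted p under 0.05. Over all 22682 genes tested in this comparison, 9933 were above 0, the median was -0.019, and 1057 were higher and 1493 lower at that p. For mych the mixture pools had 84.5, 76.7, 79.0 and 57.0 FPKM, against 60.4, 58.7, 60.3 and 51.9 FPKM in uranyl nitrate alone (log2 fold change 0.34, SE 0.0915, limma adjusted p = 0.132). The receptor gpr3 had 7.69, 8.86, 9.96 and 8.23 FPKM in the mixture and 9.41, 8.18, 8.33 and 8.54 FPKM in uranyl nitrate alone (log2 fold change 0.01, SE 0.111, limma adjusted p = 0.988). Whether the arsenite effect on gpr3 differed missed the threshold (difference -0.80, SE 0.157, limma adjusted p = 0.0633).

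The difference between the 2 arsenite effects was tested gene by gene and called for 8 genes (0.0353%), 3 of them among the 30. These 3 were higher in arsenite than in vehicle and had negative log2 fold changes in the mixture against uranyl nitrate alone, a change that was called there for soul5 only. For soul5 the mixture pools had 97.8, 82.5, 81.6 and 95.1 FPKM, against 111, 117, 117 and 115 FPKM in uranyl nitrate alone (log2 fold change -0.37, SE 0.0579, limma adjusted p = 0.00418), and the difference between the effects was -0.78 (SE 0.0819, limma adjusted p = 8.3e-05). For prxl2b that difference was -0.53 (SE 0.0949, limma adjusted p = 0.0465), while its log2 fold change in the mixture was -0.17 (SE 0.0671, limma adjusted p = 0.348) with overlapping pools. For lratb.2 it was -1.97 (SE 0.342, limma adjusted p = 0.0465), with 6.63, 5.57, 7.995 and 8.12 FPKM in the mixture and 13.0, 13.9, 10.5 and 12.6 FPKM in uranyl nitrate alone (log2 fold change -0.75, SE 0.242, limma adjusted p = 0.23). The count of 8 was 1 under 5 other settings. Leaving out a library gave 1 to 14 calls, within 1.5 times of 8 only without mixture pool 1 (10) or vehicle pool 4 (12).

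Between 10 µM and 1 µM arsenite 40 genes (0.176%) were called, or 21 without arsenite 1 µM pool 1, and among the 30 called at 1 µM only gsto1 was. The median absolute log2 difference between the doses over the 30 was 0.08, and in 16 of them it exceeded its own SE. The 30 were chosen by their values in the 1 µM pools, which this comparison also uses. That choice favours a small further change at 10 µM, so these values cannot show whether the effect levels off. Against vehicle, 10 µM gave 165 calls (0.727%), or 102 without vehicle pool 3. That comparison shares the vehicle pools with the one at 1 µM, and it served here only to choose 10 of the genes named.

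For nr1d1 the 10 µM pools had 95.4, 98.0, 91.9 and 97.0 FPKM, above every 1 µM pool, but the log2 difference of 0.12 (SE 0.0387) missed the threshold (limma adjusted p = 0.494). For arrdc3b the 10 µM pools had 53.5, 56.7, 49.7 and 51.5 FPKM, within the 1 µM range (log2 difference -0.02, SE 0.0990, limma adjusted p = 0.993). The serpinh1b pools at 10 µM had 21.0, 19.6, 14.3 and 16.6 FPKM (log2 difference -0.29, SE 0.120, limma adjusted p = 0.775). A p above the threshold does not show that the doses act alike.

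Genes called higher at 10 µM than at 1 µM included the omega glutathione transferases and a prostaglandin reductase, which were named because of their low p at 10 µM against vehicle. The transferase gsto1 had 27.5, 26.7, 25.4 and 25.9 FPKM at 10 µM, against 16.2 to 18.1 FPKM at 1 µM (log2 difference 0.61, SE 0.0724, limma adjusted p = 0.000103). Its relative gsto2 had 279, 237, 242 and 187 FPKM at 10 µM, against 122 to 129 FPKM at 1 µM (log2 difference 0.89, SE 0.0863, limma adjusted p = 5.35e-06). For ptgr1.2, a prostaglandin reductase gene, pools had 16.8, 18.9, 16.1 and 13.5 FPKM at 10 µM and 2.77, 4.28, 3.17 and 5.01 FPKM at 1 µM (log2 difference 1.86, SE 0.140, limma adjusted p = 1.86e-07). At 1 µM it overlapped the vehicle range of 2.41 to 3.48 FPKM (log2 fold change 0.24, SE 0.140, limma adjusted p = 0.809).

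Single genes of glutathione synthesis, conjugation and export, 3 of them preset and abcc2 chosen by its low p at 10 µM against vehicle, were also called higher at 10 µM than at 1 µM. The log2 difference between 10 µM and 1 µM was 0.57 for gclc (limma adjusted p = 0.000116), 0.56 for gclm (limma adjusted p = 0.00193), 0.43 for gstp1.2 (limma adjusted p = 0.00654) and 0.67 for the conjugate export pump gene abcc2 (limma adjusted p = 0.000103). The reductase-list gene zgc:123284 had 16.9, 21.5, 22.5 and 13.8 FPKM at 10 µM and 2.76, 4.70, 2.45 and 5.20 FPKM at 1 µM (log2 difference 2.06, SE 0.190, limma adjusted p = 2.86e-06). In vehicle it had 2.08, 1.78, 1.80 and 1.83 FPKM, below all 1 µM pools, without a call at 1 µM (log2 fold change 0.69, SE 0.190, limma adjusted p = 0.226). It was chosen like abcc2. Both comparisons use the same 10 µM pools, so choosing genes by a low p at 10 µM against vehicle favours a difference between the doses.

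**Figure D4:**
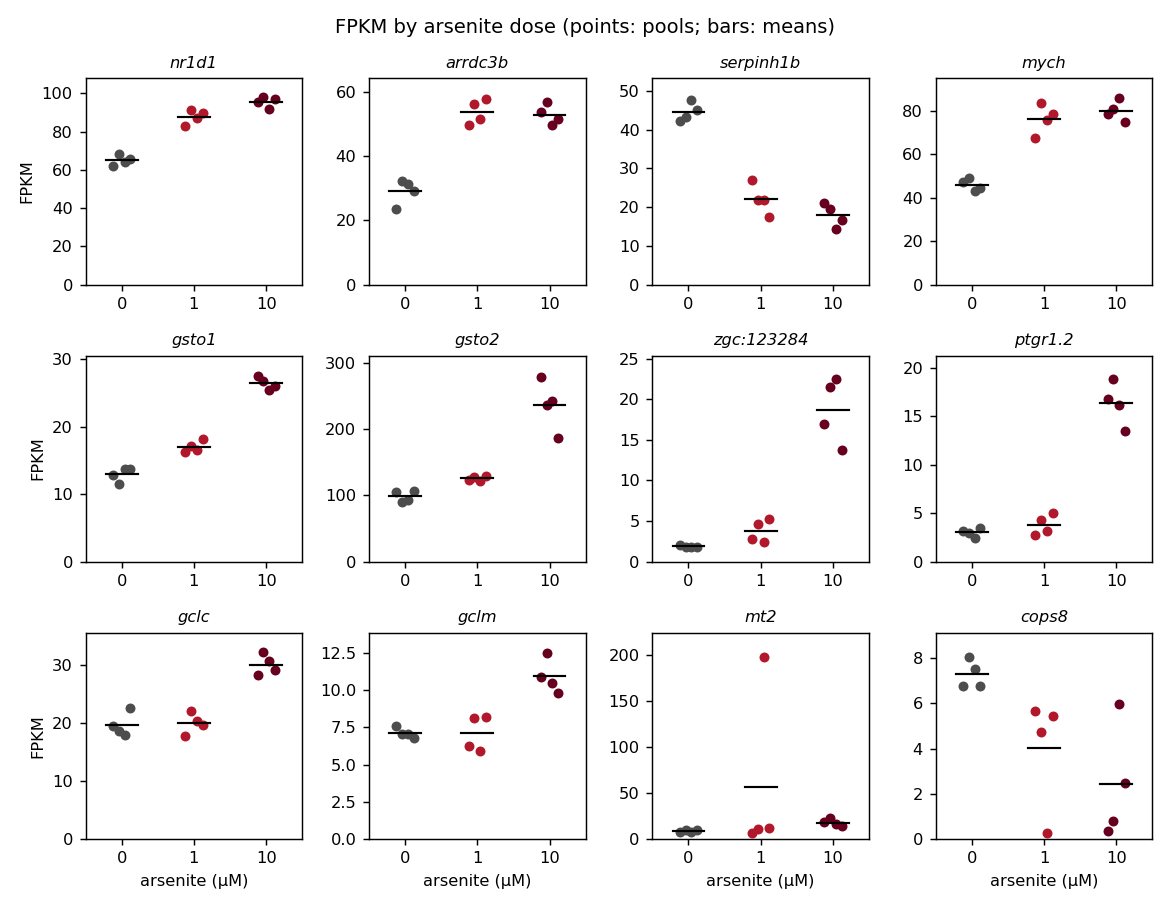
FPKM by pool at 0 (vehicle), 1 and 10 µM arsenite for 12 genes, with bars at the means. In the top row the 1 and 10 µM pools lie close together and apart from vehicle, while gsto1, gsto2, zgc:123284, ptgr1.2, gclc and gclm are highest at 10 µM. The mt2 panel shows the single arsenite pool at 198 FPKM, and the cops8 panel a single 1 µM pool at 0.273 FPKM.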

How the data were processed

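Polyadenylated RNA was sequenced from pools of whole larvae, 4 libraries in each of 6 groups, grouped by their treatment labels. The authors deposited 1 table of FPKM values for 39974 genes, and no column was left unused (0 columns). HISAT2 2.1.0, HTSeq 0.6.1, DESeq2 1.10.1 and the build GRCz11 are named in the submitters' processing notes, with no role or order. The annotation and strand setting are not given in the sources used here, so antisense and overlapping genes carry that uncertainty. Symbols came from a RefSeq table of the assembly GRCz12tu, used for names only, and 93.4% of the genes tested had one.

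Genes with FPKM of at least 0.5 in at least 4 libraries (22682) were tested on log2(FPKM + 1) of the deposited values with limma 3.58.1 in R 4.3.3: 6 group means over 24 libraries, a variance trend, 18 residual degrees of freedom and a median residual SD of 0.138. Tests were two-sided, with Benjamini-Hochberg adjustment within each contrast. All adjusted p-values in the text come from this fit unless another setting is named. Whole reads were recovered from the FPKM steps to give depth and a voom alternative. The script was tested on simulated data.

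Same-numbered pools were not treated as paired in the main fit. For 1 µM arsenite and vehicle, the 4 correlations of their deviations from the group means lay between -0.0743 and 0.0604. In the dose and mixture comparisons such correlations lay between -0.0834 and 0.105. Values of this kind cannot show whether the pools were paired by design. The labels call the pools biological replicates but do not say that they came from separate spawnings, so p-values measure only the spread between these pools.

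The genes named are every called gene with a symbol, the 2 members of each of 39 lists with the smallest p, the 10 genes with the smallest p at 10 µM against vehicle, and a preset group (mt2, as3mt, hmox1a, gclm, gclc, gstp1.2, hsp70l, hspa5, cdkn1a, cyp1a, per1a and a gene not reported here). The members and lists were chosen with earlier results of these data known. Alternatives were other pseudocounts, filters and scalings, no variance trend, the compared groups alone, a replicate block, voom, and leaving out each library. Promoter and protein sequences were not used here.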

Additional observations from a re-analysis of the deposited data

Results flagged for a closer look

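Among the 110 named genes, 220 groups of 4 pools were examined for a single pool far from the other 3, which chance gives in about 1 of 20 groups, and 11 were found. Among them were mt2, at 198 FPKM in arsenite 1 µM pool 3 with the other arsenite pools at 6.505 to 11.5, and the COP9 signalosome gene cops8, at 0.273 FPKM in arsenite 1 µM pool 3 with the others at 4.75 to 5.65. The zinc transporter gene slc39a14 was low in the same arsenite pool, at 1.78 FPKM with the others at 2.71 to 2.80.

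In arsenite 1 µM pool 2, the chaperone gene dnajb1b was high at 14.7 FPKM with the others at 9.68 to 10.17, and gene number 100536065 was low at 6.595 FPKM with the others at 7.94 to 8.17. In vehicle pool 2, dnajb1b was low at 14.4 FPKM with the others at 17.7 to 18.2. In vehicle pool 1, the ribosomal gene rps15 stood at 10.09 FPKM with the others at 6.88 to 7.11, the potassium channel gene kcnj1a.3 at 1.94 FPKM with the others at 1.02 to 1.18, and zgc:123284 at 2.08 FPKM with the others at 1.78 to 1.83. In vehicle pool 3, the aldo-keto reductase gene akr1a1b stood at 10.14 FPKM with the others at 8.79 to 8.91. In vehicle pool 4, the cytokine signalling inhibitor socs1a was low at 4.20 FPKM with the others at 6.44 to 6.73.

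The arsenite effect with uranyl nitrate differed from that without it for 3 called genes, with a difference of log2 fold changes of -0.78 for soul5, -0.53 for prxl2b and -1.97 for lratb.2 (limma adjusted p = 8.3e-05, 0.0465 and 0.0465). All 3 were called higher with arsenite alone. With uranyl nitrate their log2 fold changes were negative, and that of soul5 alone was called.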

How the results depend on the processing

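The 30 genes called at 1 µM arsenite against vehicle became 15 with no variance trend and 5 in the fit of the 2 groups alone, and leaving out a library gave 11 to 54. Counts were 34 with a pseudocount of 0.1, 30 with no filter, 38 with FPKM of at least 1, 32 with equal FPKM totals, 38 with median-of-ratios scaling and 22 with voom, all of these 22 among the 30. With a replicate block 34 genes were called, 26 of them among the 30. Between 10 and 1 µM the 40 calls became 13 in the fit of those groups alone and 21 to 36 without a library. In the mixture against uranyl nitrate the 54 calls became 20 in the fit of those groups alone and 17 to 51 without a library, and 53.7% of the calls were higher, against 65.3% with median-of-ratios scaling and 45.3% with equal FPKM totals. The 8 genes whose arsenite effect differed with uranyl nitrate became 1 with no filter, median-of-ratios scaling, no variance trend, the compared groups alone or a replicate block, and 1 to 14 without a library. At 10 µM against vehicle the 165 calls became 58 in the fit of those groups alone and 102 to 180 without a library. The cause was not tested where a count moved, apart from the fewer samples in fits that drop libraries.

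Over 17 alternatives, named called genes kept their call in 348 comparisons and lost it in 162, and 0 reversed. Leaving out a library could not reverse a called gene, because its arsenite pools all lay on one side of its vehicle pools. Of 80 named genes not called, 7 were called under some alternative. With 4 libraries a group and changes of this size, a gene that was not called is not shown to be unchanged.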

Other observations

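Ionocytes, the salt-transporting cells of skin and kidney, were a list with no call but with many low p-values. Of 42 genes tested 0 were called, 9 were higher and 1 lower at an unadjusted p under 0.05 (23.8% of the list against 6.74% of all genes), and the median log2 fold change was 0.054. The kidney cotransporter gene slc12a1 averaged 3.66 FPKM in arsenite and 2.70 FPKM in vehicle (log2 fold change 0.34, SE 0.0910, limma adjusted p = 0.204), and the potassium channel gene kcnj1a.3 averaged 2.79 FPKM in arsenite and 1.3 FPKM in vehicle (log2 fold change 0.70, SE 0.201, limma adjusted p = 0.265). With uranyl nitrate present in both groups, 1 ionocyte gene was higher and 0 lower at an unadjusted p under 0.05. Of all 22682 genes tested, 1057 were higher and 1493 lower there. Of 73 peptide hormone genes 0 were called at 1 µM arsenite against vehicle, and 5 were higher and 3 lower at an unadjusted p under 0.05 (11%). Prolactin prl averaged 3.37 FPKM in arsenite and 1.67 FPKM in vehicle (log2 fold change 0.72, SE 0.171, limma adjusted p = 0.121), and somatostatin sst1.2 averaged 15.7 FPKM in arsenite and 10.5 FPKM in vehicle (log2 fold change 0.56, SE 0.154, limma adjusted p = 0.218). In the mixture against uranyl nitrate alone, 3 hormone genes were called higher and 61 of the 73 were above 0. Of all 22682 genes tested, 29 were called higher and 9933 were above 0 there. Among 39 cytokine genes 0 were called, and 5 were higher and 4 lower at an unadjusted p under 0.05 (23.1%). The feedback inhibitors came closest: nfkbiaa averaged 42.3 FPKM in arsenite and 27.7 FPKM in vehicle (limma adjusted p = 0.0522) and socs1a 11.5 FPKM in arsenite and 6.0 FPKM in vehicle (limma adjusted p = 0.0556).

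Housekeeping lists moved little, and none of their members was called. Over all 22682 genes tested, 0.132% were called, the median log2 fold change was -0.007 and 10687 were above 0. The median log2 fold change was -0.035 over 83 cytosolic ribosomal protein genes, of which 12 were above 0, -0.052 over 86 nuclear-encoded respiratory chain genes, of which 19 were above 0, and -0.049 over 38 proteasome genes, of which 8 were above 0. It was -0.064 over 34 mitosis genes and -0.007 over 42 DNA replication genes. In the mixture against uranyl nitrate alone, 79 of the 83 ribosomal protein genes were above 0 (median 0.082). There 51 of the 86 respiratory chain genes (median 0.022) and 25 of the 38 proteasome genes (median 0.024) were above 0. The medians there were -0.163 for mitosis, -0.091 for DNA replication and -0.019 over all genes, of which 9933 were above 0. The COP9 signalosome gene cops8 was near absent in some pools of several groups, and low in every pool of 300 µg/L uranyl nitrate. It had 5.65, 4.75, 0.273 and 5.46 FPKM in 1 µM arsenite, 0.359, 0.794, 5.99 and 2.49 FPKM in 10 µM arsenite, 0.361, 8.26, 6.67 and 0.513 FPKM in 30 µg/L uranyl nitrate, and 0.245, 0.889, 0.26 and 0.38 FPKM in 300 µg/L uranyl nitrate. The mixture pools had 5.40 to 7.09 FPKM and the vehicle pools 6.76 to 8.07 FPKM.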
